A study of Mus musculus with 9 samples.

Results

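The trigeminal ganglion (TG), which holds the sensory neurons of the face and jaw, contained very large amounts of a few structural noncoding RNAs, and the 5 most abundant of those described here were lower on average after CFA injection into the temporomandibular joint (TMJ) than after saline. The fitted changes of these RNAs were between −18.6% and −6.38%, and none of them passed the test. The RNAs described here are the products of 9 genes that were chosen by name: Rn7sk (7SK RNA), Rn7s1 and Rn7s2 (7SL RNA), Rpph1 (the RNA of RNase P), Rmrp (the RNA of RNase MRP), Rny1 and Rny3 (Y RNAs), Vaultrc5 (a vault RNA) and Terc (telomerase RNA). Of 142497 transcripts in the deposited mRNA, lncRNA and other noncoding RNA tables, 10 belonged to these genes. The other noncoding RNA table (24718 transcripts) held 1 transcript of each of the 9 genes, the lncRNA table (15657 transcripts) held an additional Rmrp transcript, and the mRNA table (102122 transcripts) held 0. All 9 transcripts of the noncoding table averaged at least 0.1 FPKM (mapped fragments, corrected for the length of the transcript and the size of the library) and were tested.

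Libraries were made from the TG of wild-type (WT) male C57BL/6 mice that were 8 weeks old. The saline group (replicates 1 to 3, day 3 by its label) received 10 µl of saline in the TMJ, and the CFA3D (day 3, replicates 1 to 3) and CFA6D (day 6, replicates 4 to 6) groups received 10 µl of complete Freund's adjuvant (CFA) at 5 mg/ml, an oil emulsion with killed mycobacteria that inflames the joint. The injection was unilateral. Each of the 9 libraries was a pool of 3 mice, so n = 3 pools per group, and both CFA groups were compared with the same 3 saline libraries, which have no day 6 counterpart. The steps between FPKM values of low transcripts imply a scaling to 30.0 to 42.2 M read pairs per library. This size is inferred from the values and is not the number of reads sequenced, which the paper gives by group. Markers of sensory neurons (7 of 7 genes) and of satellite glia and Schwann cells (4 of 4 genes) were at 1 FPKM or more in every library. Markers of other tissues also varied between pools. The summed level of 3 pituitary genes was 10447 FPKM in saline replicate 3, at most 1105 FPKM in the CFA6D libraries and at most 20.2 FPKM in the CFA3D libraries. The sum of 4 marrow granule genes was 2420 FPKM in CFA6D replicate 6 and at most 101 FPKM in the saline libraries. Saline replicate 2 had the highest sums of 4 erythroid genes (5759 FPKM, median of all libraries 2519 FPKM) and of 3 skeletal muscle genes (94.9 FPKM, median 2.36 FPKM).

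All these RNAs act in the cell as RNA, without being translated. 7SK RNA holds the elongation factor P-TEFb in an inactive particle together with Hexim, Larp7 and Mepce proteins, and so limits the release of paused RNA polymerase II. 7SL RNA is the scaffold of the signal recognition particle, which brings ribosomes that are making secreted and membrane proteins to the endoplasmic reticulum. The RNA of RNase P cuts the leader from precursor tRNAs, and the related RNA of RNase MRP takes part in the processing of ribosomal RNA. Y RNAs are bound by the Ro and La proteins, vault RNA is a small component of the vault particle, and Terc carries the template for telomere repeats. Apart from Terc, a product of RNA polymerase II, they are transcribed by RNA polymerase III and have no poly(A) tail, so they are seen in libraries such as these, which were prepared from ribosome-depleted total RNA without poly(A) selection.

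Sequences that bear on how the values can be read are given 5′ to 3′, with T for U, as in GENCODE mouse release 21, and positions are on GRCm38. The first sequence is the first 120 bases of Rn7sk (chr9:78175303-78175633, minus strand, 331 bases), with capitals for GATC, the letters found in the stems to which Hexim binds. The second is the Rmrp transcript of the lncRNA table, Rmrp-202 (chr4:43492783-43493063, minus strand, 281 bases), with capitals for the 271 bases that are the Rmrp transcript of the noncoding table (Rmrp-201). The last sequences are the Y RNAs Rny1 (chr6:47788069-47788180, minus strand) and Rny3 (chr6:47781624-47781725, plus strand), with capitals for the run of T at the end.
Rn7sk, first 120 bases: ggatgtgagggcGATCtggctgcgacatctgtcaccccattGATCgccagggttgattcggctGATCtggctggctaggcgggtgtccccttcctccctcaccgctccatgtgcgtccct
Rmrp-202: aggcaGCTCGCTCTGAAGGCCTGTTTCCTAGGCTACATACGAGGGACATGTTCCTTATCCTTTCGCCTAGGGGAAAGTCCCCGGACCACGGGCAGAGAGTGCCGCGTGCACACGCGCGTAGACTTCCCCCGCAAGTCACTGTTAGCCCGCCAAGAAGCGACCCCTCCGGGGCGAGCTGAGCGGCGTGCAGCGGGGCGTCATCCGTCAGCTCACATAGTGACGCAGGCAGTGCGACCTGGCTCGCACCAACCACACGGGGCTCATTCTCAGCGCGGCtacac
Rny1: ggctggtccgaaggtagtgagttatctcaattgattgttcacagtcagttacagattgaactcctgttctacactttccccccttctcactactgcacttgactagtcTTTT
Rny3: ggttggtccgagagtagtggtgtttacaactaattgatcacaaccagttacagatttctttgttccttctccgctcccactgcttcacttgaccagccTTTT

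Rn7s2 (7SL RNA, chr12:69361182-69361481, minus strand) and Rn7s1 (chr12:69159295-69159594, plus strand) had 0 differences over their 300 bases, and 77 bases at the end of Rn7s2 are shared with Gm47299, an annotated miRNA of 80 bases. Since Rn7s1 and Rn7s2 are identical, a read from one cannot be assigned to it by sequence, and the values of the loci, which lie 201.587 kb apart, are a split of 7SL RNA. Rmrp-202 holds the whole of Rmrp-201 plus 5 bases on each side, so the Rmrp values of the noncoding and lncRNA tables are a split as well. GATC reads the same on both strands and starts at positions 13, 42 and 64 of Rn7sk. At least 1 GATC was found in the first 120 bases of 29.7% of the 20258 transcripts of this length or more in the noncoding table, and at least 3 in 0.666%. Rny1 and Rny3 lie 6343 bases apart, on opposite strands, and are 71.4% identical, so their reads can be told apart by sequence.

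In level, Rn7s1, Rn7s2 and Rn7sk were the most abundant RNAs of the noncoding table, with means over the 9 libraries of 345107, 290289 and 145211 FPKM. The next rank was held by Gm47299 (126941 FPKM, the mean of very unequal libraries), followed by Rpph1 (26415 FPKM) and Rmrp (11837 FPKM) on ranks 5 and 6. Rny3 (rank 31, mean 209 FPKM), Rny1 (rank 38, mean 137 FPKM), Vaultrc5 (rank 365, mean 6.01 FPKM) and Terc (rank 1560, mean 1.38 FPKM) were far lower. Between Rn7s2, Rn7sk, Rpph1, Rmrp and Rny3 the ranges over the 9 libraries did not overlap, so this order held in any pair of libraries. The ranges of Rn7s1 and Rn7s2, of Rny3 and Rny1, and of Vaultrc5 and Terc overlapped, although the first of each pair was the higher in 9 of 9 libraries. Terc ranged down to values under 1 read pair.

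Near-copies of 7SK and 7SL RNA were listed too. The search covered only transcripts annotated as misc_RNA, ribozyme or miRNA, so pseudogenes and other classes were left out. Of 11 transcripts with at least 90% identity to Rn7sk over at least 100 bases, 5 averaged 1 FPKM or more. Gm24447, whose aligned stretch is 100% identical to the first 241 bases of Rn7sk, had a mean of 7391 FPKM, and Gm26315 (99.6% identity over 238 bases) had 5179 FPKM. Gm24447 was at 0.0459 to 0.0628 of the Rn7sk value in each library. For 7SL RNA, Rn7s6 (98.6% identity over 214 bases) had a mean of 2212 FPKM. How reads that match several loci were shared out was not given in the sources used here, so the values of Rn7sk, Rn7s1 and Rn7s2 are uncertain by what these loci took or gave. Rpph1, Rmrp, Rny3 and Terc had 0 such copies among the transcripts searched.

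The level of 7SL RNA was split between its loci in nearly the same way in 8 of the 9 libraries. The ratio of Rn7s2 to Rn7s1 was 0.852, 0.852 and 0.856 in the saline libraries, 0.852, 0.849 and 0.842 in the CFA3D libraries and 0.757, 0.848 and 0.852 in the CFA6D libraries. CFA6D replicate 4 stood apart with the lowest ratio. The nested annotation Gm47299 was uneven in another way. It was at 174980, 4.39 and 217346 FPKM in the saline libraries, at 192550, 174454 and 195666 FPKM in the CFA3D libraries and at 2.28, 187463 and 3.20 FPKM in the CFA6D libraries. It was above Rn7sk in 6 libraries and near 0 in the other 3 (1 saline and 2 CFA6D), while Rn7s2, in which 77 of its 80 bases lie, remained at 236569 to 349933 FPKM. The other 3 annotated miRNAs inside the 7SL loci, Gm47305, Gm47287 and Gm47295, had means of 0.0664, 0.0666 and 0.447 FPKM. No direction for Gm47299 between groups can be given from such values.

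**Figure D1:**
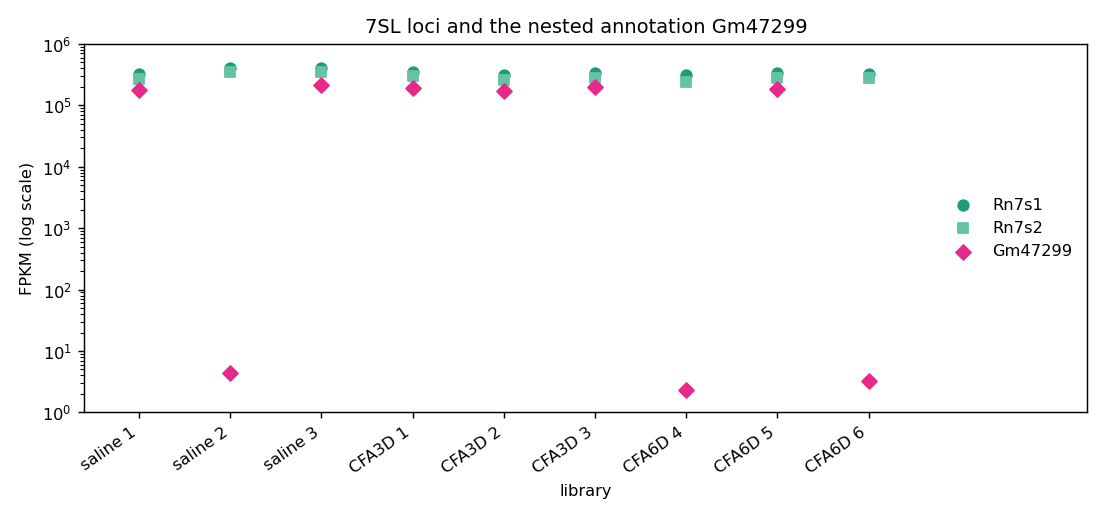
FPKM (log axis) of Rn7s1, Rn7s2 and the nested annotation Gm47299 in each of the 9 libraries, with 1 point per library. Rn7s1 and Rn7s2 are at 236569 to 410764 FPKM throughout, while Gm47299 is near them in 6 libraries and at 2.28 to 4.39 FPKM in saline replicate 2 and CFA6D replicates 4 and 6.

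The shares of the table total taken by the structural RNAs depended on this annotation. The 9 RNAs made up 78.2%, 95.6% and 78.6% of the summed FPKM of the noncoding table in the saline libraries, 78.1%, 77.6% and 76.9% in the CFA3D libraries and 95.1%, 77.9% and 95.3% in the CFA6D libraries. The 3 libraries above 95% were those in which Gm47299 was near 0. With Gm47299 left out of the total, a choice made after the data had been seen, the 9 RNAs took 94.4% to 95.8% in every library. Of this reduced total, 7SL RNA (Rn7s1 plus Rn7s2) took 73.7% ± 2.86 (SD, n = 3) in saline, 73.6% ± 1.04 on CFA3D and 74.0% ± 1.55 on CFA6D, and Rn7sk took 17.2% ± 2.04, 16.9% ± 0.488 and 16.6% ± 1.41. Rpph1 took 3.07% ± 0.123, 3.08% ± 0.227 and 3.08% ± 0.126, and Rmrp 1.34% ± 0.0642, 1.32% ± 0.103 and 1.50% ± 0.129. For 7SL RNA, Rn7sk and Rpph1 the means of these shares differed by less than the spread between libraries. The Rmrp mean on CFA6D was higher than in saline by more than either SD. Its CFA6D shares (1.645%, 1.413% and 1.433%) were each above every saline share (1.408%, 1.287% and 1.311%), although the nearest lay close. This reduced share was not tested, and for the Rmrp share of the full total the exact permutation p was 0.3 (two-sided). On the full total, the share of the 9 RNAs was 6.57 percentage points lower on CFA3D than in saline, which gave an exact two-sided permutation p of 0.1, the smallest that 3 against 3 libraries allow.

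Measured against all mapped fragments, the 5 abundant RNAs (Rn7s1, Rn7s2, Rn7sk, Rpph1 and Rmrp, set apart by their level) took 24.4%, 30.0% and 28.9% in the saline libraries. They took 25.3%, 22.8% and 24.5% in the CFA3D libraries and 22.0%, 24.3% and 23.1% in the CFA6D libraries. These shares were computed as FPKM times the annotated length. Every CFA6D library was below every saline library, whereas CFA3D replicates 1 and 3 were above saline replicate 1. These shares leave out the nested Gm47299, which was near 0 in saline replicate 2 and CFA6D replicates 4 and 6. Saline replicate 1 was at 24.38% and CFA6D replicate 5 at 24.31%. Gm47299 took another 1.40% and 1.50% there, so with it added CFA6D replicate 5 would lie above saline replicate 1. Without Gm47299, the group means were 27.8% ± 2.98 (SD, n = 3) in saline, 24.2% ± 1.31 on CFA3D and 23.1% ± 1.15 on CFA6D. The exact permutation test of these means (two-sided) gave p = 0.3 for CFA3D and p = 0.1, the smallest possible, for CFA6D against saline. It was not run with Gm47299 added. Transcripts of the mRNA table took 56.6% ± 2.73, 59.6% ± 1.22 and 60.3% ± 0.849 of fragments in the same order. FPKM are relative to all mapped fragments, so a lower share of these RNAs and a higher share of the others cannot be told apart. In bulk tissue, fewer cells of a type and less RNA per cell cannot be told apart either.

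**Figure D2:**
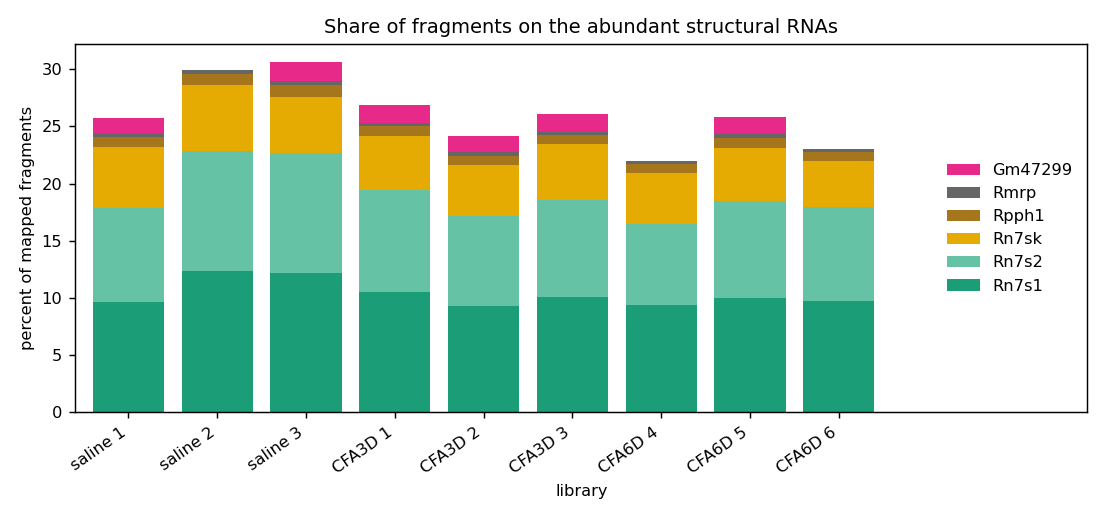
Percent of mapped fragments (vertical axis, from 0) taken by Rn7s1, Rn7s2, Rn7sk, Rpph1, Rmrp and the nested annotation Gm47299, stacked for each library. Without Gm47299 the stacks reach 24.4% to 30.0% in saline, 22.8% to 25.3% on CFA3D and 22.0% to 24.3% on CFA6D.

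No member was called on either day. Differences were tested in limma as log2(FPKM + 0.1), and the added 0.1 makes the fold changes of scarce RNAs come out too small. A transcript was called where its log2 fold change was 1 or more in size with p, before adjustment, under 0.05. By this rule 2.27% of the 7989 noncoding transcripts tested were called on CFA3D against saline, 2.84% on CFA6D against saline and 2.52% on CFA6D against CFA3D. Among the 9 members 0 were called and 0 had an unadjusted p under 0.05 in limma, in each of these comparisons. The lowest unadjusted p of a member in limma was 0.119 on CFA3D, 0.117 on CFA6D and 0.185 between the days, and the lowest Benjamini-Hochberg adjusted p of a member was 0.853, with the adjustment made over all transcripts tested. Over the whole table, 0, 4 and 4 transcripts had an adjusted p under 0.05 in limma, and the median log2 fold changes were 0.02, −0.02 and −0.03. The medians of the 5 abundant RNAs were −0.19 on CFA3D, −0.25 on CFA6D and −0.06 between the days. Without saline replicate 3 and CFA6D replicate 6, the libraries with the most pituitary and granule RNA, all 5 were still below saline, with log2 fold changes of −0.26 (Rn7sk) to −0.13 (Rn7s1) on CFA3D and of −0.29 (Rn7sk) to −0.047 (Rmrp) on CFA6D. Saline replicate 2, with the most erythroid and muscle RNA, was also the library with the highest Rn7sk, Rn7s1, Rn7s2 and Rmrp. Without it, the log2 fold changes of the 5 RNAs were −0.18 (Rmrp) to −0.12 (Rn7s1) on CFA3D and −0.24 (Rn7sk) to −0.065 (Rmrp) on CFA6D. Without saline replicate 1, which had the lowest Rn7s1, Rn7s2, Rpph1 and Rmrp of its group, Rn7s1 and Rn7s2 were at −0.30 and −0.31 on CFA3D. Rmrp on CFA3D (−0.26, unadjusted p = 0.0390 in limma) and Rn7s2 (−0.40, unadjusted p = 0.0430 in limma) and Rpph1 (−0.31, unadjusted p = 0.0382 in limma) on CFA6D then had p under 0.05 before adjustment, although 0 were called because their changes were under 1 in size. With quantile normalization, which sets values by rank, Rn7s1 and Rn7s2 had changes of 0 on both days, and Rn7sk, Rpph1 and Rmrp were above saline on CFA6D. The part of the other tissues' RNA in these differences was not tested.

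Although no change passed the test, some members did not overlap between groups. On CFA3D, Rn7sk, Rpph1 and Rmrp were lower in all 3 libraries than in any saline library, 3 of 9 members, where 4.13% of all transcripts tested were. On CFA6D, Rn7sk and Rpph1 were (2 of 9 members, against 5.86% of all transcripts). Rn7sk and Rpph1 were also lower in all 6 CFA libraries than in all 3 saline libraries, as were 1.29% of all transcripts tested. Most transcripts tested were scarce, with 2269 of 7989 at a mean of 1 FPKM or more. The pattern was not particular to the members. The near-copy Gm24447 was also lower in all 6 CFA libraries, by a narrow gap on CFA3D. Gm26315 and Rn7s6 were lower in every CFA6D library but overlapped saline on CFA3D. The members are not independent of each other in these counts, since they share the libraries and their scaling, and the comparisons share the saline libraries.

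**Figure D3:**
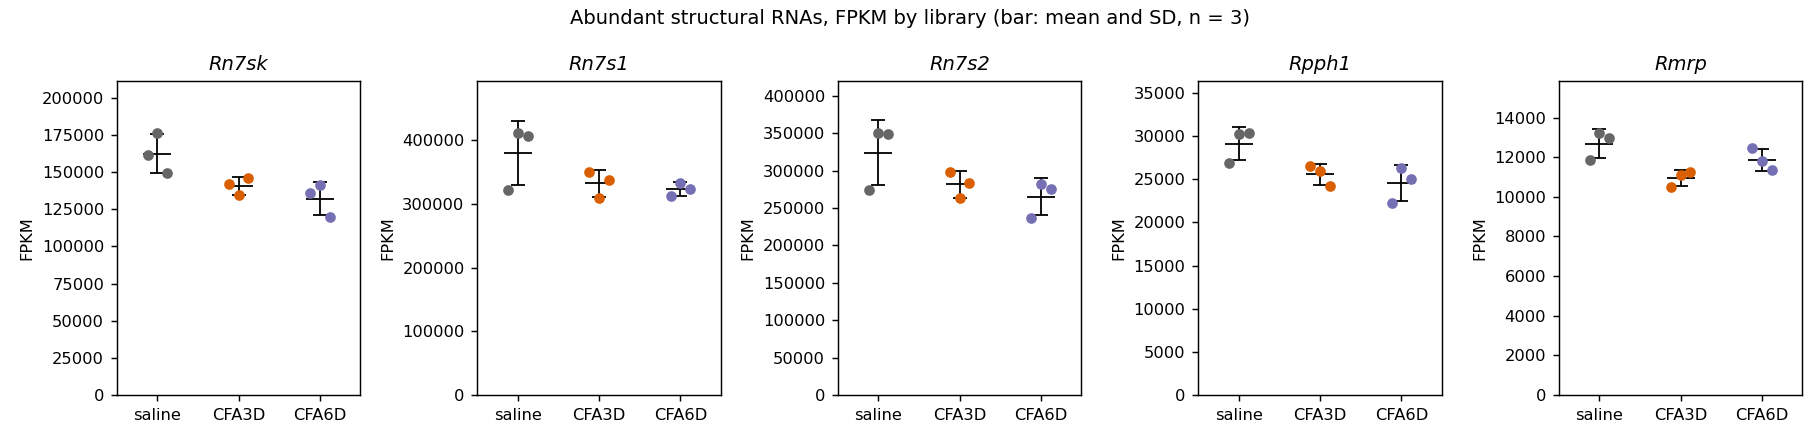
FPKM of Rn7sk, Rn7s1, Rn7s2, Rpph1 and Rmrp by group, with each axis starting at 0, 1 point per library and bars for the mean and SD (n = 3). The saline points of Rn7sk and Rpph1 lie above all CFA points, and those of Rmrp lie above the CFA3D points, while Rn7s1 and Rn7s2 overlap on both days at saline replicate 1.

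For 7SK RNA, Rn7sk was at 161646, 176118 and 149653 FPKM in the saline libraries, at 142002, 134481 and 146379 FPKM in the CFA3D libraries and at 135662, 141019 and 119935 FPKM in the CFA6D libraries. All 6 CFA libraries were below the lowest saline library, saline replicate 3, and CFA6D replicate 6 was the lowest of all. The means were 162472 ± 13252 FPKM (SD, n = 3) in saline, 140954 ± 6018 FPKM on CFA3D and 132205 ± 10959 FPKM on CFA6D. The log2 fold change was −0.20 (SE 0.19, 95% interval −0.63 to 0.22, adjusted p = 0.999 in limma) on CFA3D and −0.30 (SE 0.19, −0.72 to 0.13, adjusted p = 0.867 in limma) on CFA6D. In percent these fitted changes were −13.1% and −18.6%, and each interval included 0. The width of the intervals depended on the setting, since limma takes part of the spread from a trend over the other transcripts. With the same log2 fold change on CFA6D, the unadjusted p in limma was 0.147 in the main fit. It was 0.0224 with a pseudocount of 1 and 0.510 with no filter.

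For 7SL RNA, Rn7s1 was at 321131, 410764 and 407001 FPKM in the saline libraries, at 350792, 309613 and 336779 FPKM on CFA3D and at 312628, 333398 and 323854 FPKM on CFA6D. Rn7s2 was at 273755, 349933 and 348418 FPKM in saline, at 298748, 262853 and 283638 FPKM on CFA3D and at 236569, 282740 and 275949 FPKM on CFA6D. Saline replicates 2 and 3 were above every CFA library for both loci, and saline replicate 1 lay among the CFA libraries. The sum of Rn7s1 and Rn7s2, which does not depend on the split between them, was 703667 ± 94244 FPKM (SD, n = 3) in saline. It was 614141 ± 38918 FPKM on CFA3D and 588380 ± 34902 FPKM on CFA6D. This sum leaves out the nested Gm47299, which was near 0 in saline replicate 2 and CFA6D replicates 4 and 6. In the other libraries Gm47299 took 1.40% to 1.74% of fragments, and its part in the 7SL values was not tested. For the sum of Rn7s1 and Rn7s2, a test added after the data had been seen, the log2 fold change was −0.19 (95% interval −0.85 to 0.47, adjusted p = 0.999 in limma) on CFA3D and −0.25 (−0.91 to 0.41, adjusted p = 0.922 in limma) on CFA6D. The ratio of Rn7sk to the 7SL sum was 0.234 ± 0.0369 in saline, 0.230 ± 0.00972 on CFA3D and 0.225 ± 0.0237 on CFA6D, and its differences from saline were smaller than the spread (exact permutation p = 1 and 0.8, two-sided).

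For RNase P, Rpph1 was at 26879, 30220 and 30320 FPKM in the saline libraries, at 26538, 25992 and 24240 FPKM on CFA3D and at 22225, 26334 and 24988 FPKM on CFA6D. Each CFA library was below each saline library, although the gap between saline replicate 1 and CFA3D replicate 1 was small beside the spread within groups. The log2 fold change was −0.19 (SE 0.15, 95% interval −0.51 to 0.14) on CFA3D and −0.25 (SE 0.15, −0.58 to 0.08) on CFA6D, with adjusted p of 0.999 and 0.853 in limma. For RNase MRP, Rmrp was at 11864, 13208 and 12981 FPKM in saline, at 10491, 11104 and 11270 FPKM on CFA3D and at 12459, 11789 and 11365 FPKM on CFA6D. Rmrp was below saline in every CFA3D library, while on CFA6D its values overlapped those of saline. Its log2 fold change was −0.21 (SE 0.12, −0.49 to 0.07) on CFA3D and −0.10 (SE 0.12, −0.37 to 0.18) on CFA6D. The ratio of Rpph1 to Rmrp, RNAs whose particles share most of their proteins, was 2.30 ± 0.0358 in saline, 2.34 ± 0.189 on CFA3D and 2.07 ± 0.250 on CFA6D. On CFA6D the ratio was 1.78, 2.23 and 2.20, below each saline ratio (2.27, 2.29 and 2.34), with an exact permutation p of 0.1 (two-sided), the smallest possible. CFA6D replicate 4 had the lowest ratio, as it had the lowest Rn7s2 to Rn7s1 ratio. Rmrp-202 in the lncRNA table ranged from 2.03 to 3.23 FPKM, which is 0.000179 to 0.000272 of the Rmrp value in the same library.

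**Figure D4:**
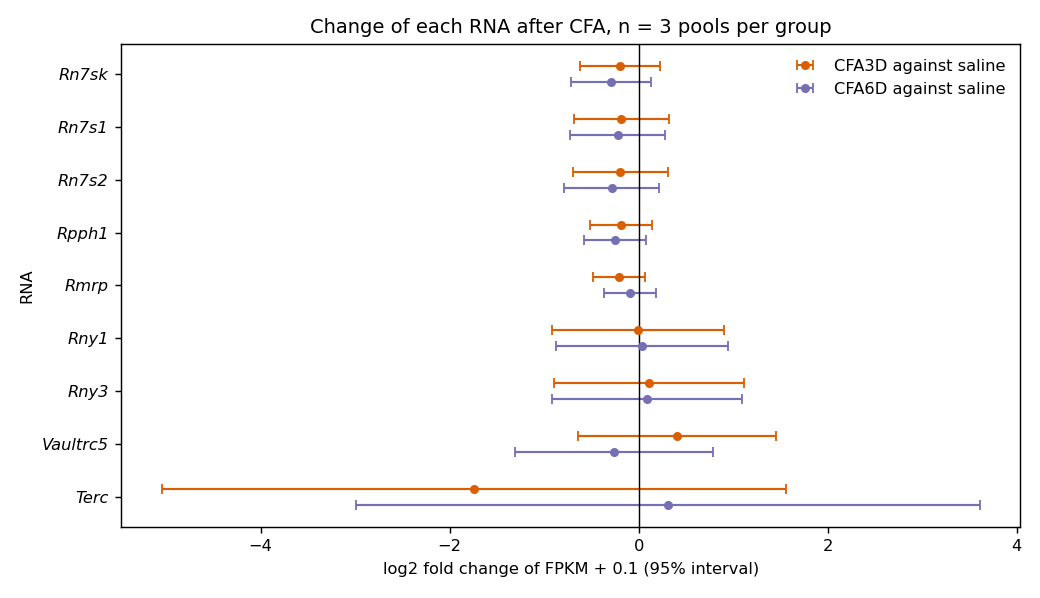
Log2 fold change of FPKM + 0.1 (horizontal axis) with its 95% interval for each of the 9 RNAs, on CFA3D and on CFA6D against the same 3 saline libraries. All intervals include 0. Those of the 5 abundant RNAs end between 0.07 and 0.32 above 0, and those of Terc are the widest.

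The Y RNAs differed widely between libraries of the saline and CFA3D groups and showed no difference between groups beyond that spread. Rny3 was at 82.3, 289 and 275 FPKM in the saline libraries, at 143, 195 and 295 FPKM on CFA3D and at 235, 207 and 162 FPKM on CFA6D. Rny1 was at 63.4, 182 and 185 FPKM in saline, at 87.6, 125 and 191 FPKM on CFA3D and at 140, 144 and 113 FPKM on CFA6D. For both Y RNAs the lowest library was saline replicate 1 and the second lowest was CFA3D replicate 1, so the groups overlapped throughout. Of 4 other RNA classes looked at, some were low in these libraries and some were not. The summed FPKM of mitochondrial tRNAs was lowest in both (574 and 763 FPKM, against 787 to 1263 FPKM in the remaining 7), as was that of mitochondrial rRNAs (10.5 and 11.2 FPKM, against 12.6 to 18.7 FPKM). The sum of snoRNAs was 5752 FPKM in saline replicate 1, the second highest of the 9 libraries, and 4012 FPKM in CFA3D replicate 1. The sum of snRNAs was 1599 FPKM in saline replicate 1, the median, and 1253 FPKM in CFA3D replicate 1, the lowest. What these classes have to do with the Y RNA values was not tested. The log2 fold changes of Rny1 were −0.01 (95% interval −0.92 to 0.90) on CFA3D and 0.03 (−0.88 to 0.94) on CFA6D, and those of Rny3 were 0.11 (−0.90 to 1.12) and 0.09 (−0.92 to 1.10). Changes of close to 2-fold in either direction therefore remained within the intervals. The values depended on saline replicate 1: without it, Rny3 was −0.48 on CFA3D and −0.50 on CFA6D, and Rny1 was −0.52 and −0.48.

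Rny1 and Rny3 moved together across the 9 libraries. On the log2(FPKM + 0.1) scale Pearson's r was 0.98 (exact permutation p = 2.48e-05, adjusted p = 0.000843 over 36 pairs of members) and Spearman's rho was 0.97 (exact permutation p = 0.000165, adjusted p = 0.00298). Without saline replicate 1 and CFA3D replicate 1, the libraries farthest from the median of Rny1, r was 0.97. The ratio of Rny3 to Rny1 stayed between 1.30 and 1.68. The only other pairs with an adjusted p under 0.05 for r were Rn7s1 with Rn7s2, which are identical in sequence (r = 0.96, rho = 0.98), and Rn7s2 with Rpph1 (r = 0.91, adjusted exact permutation p = 0.0255). For the last pair, rho was 0.67 (adjusted exact permutation p = 0.386), and r fell to 0.73 without saline replicates 2 and 3. All members share library, depth and scaling in these correlations.

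**Figure D5:**
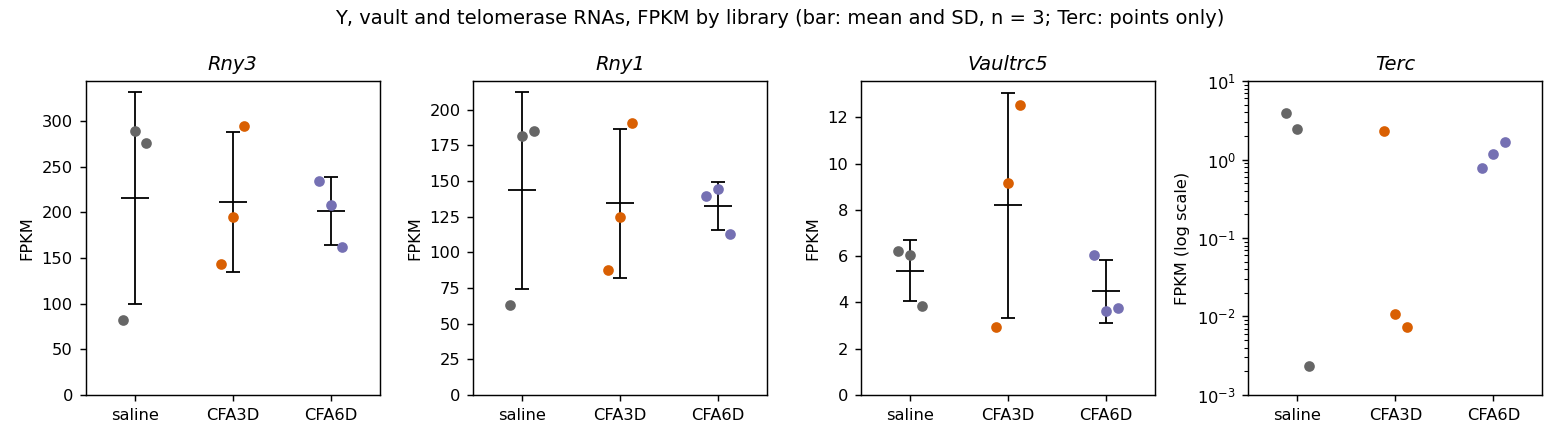
FPKM of Rny3, Rny1 and Vaultrc5 (axes from 0, bars for mean and SD, n = 3) and of Terc (log axis, points only) by group, with 1 point per library. The groups overlap for each RNA, and the lowest Y RNA values are in saline replicate 1 and CFA3D replicate 1.

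The vault RNA Vaultrc5 was scarce, with approximately 17.6 to 64.5 read pairs per library. It was at 6.21, 6.06 and 3.84 FPKM in the saline libraries, at 2.92, 9.14 and 12.5 FPKM on CFA3D and at 6.03, 3.62 and 3.76 FPKM on CFA6D. The CFA3D group held both the lowest and the highest libraries. The log2 fold change was 0.40 (95% interval −0.65 to 1.45) on CFA3D and −0.27 (−1.31 to 0.78) on CFA6D. The call depended on 1 library: without CFA3D replicate 1, Vaultrc5 passed the rule on CFA3D (log2 fold change 1.01, unadjusted p = 0.00783 in limma) and between the days (−1.28, unadjusted p = 0.00207 in limma), and without CFA3D replicate 3 the value on CFA3D was −0.02.

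Terc, the telomerase RNA, was scarce and very uneven between libraries. It was at 3.97, 2.45 and 0.00234 FPKM in the saline libraries, at 2.30, 0.0107 and 0.00739 FPKM on CFA3D and at 0.779, 1.19 and 1.67 FPKM on CFA6D. In saline replicate 3 and CFA3D replicates 2 and 3 these values amount to less than 1 read pair, against approximately 13.0 to 51.5 read pairs in the remaining 6 libraries. Low and high libraries thus occurred in both the saline and the CFA3D group. What sets the low libraries apart, scarcity or the assignment of reads, was not tested. The log2 fold change was −1.74 (95% interval −5.04 to 1.56) on CFA3D and 0.31 (−2.995 to 3.61) on CFA6D, and it depended on the pseudocount: with 1 in place of 0.1 it was −0.24 on CFA6D. Terc passed the rule on CFA3D without saline replicate 3 (−3.40, unadjusted p = 0.0204 in limma) or without CFA3D replicate 1 (−3.23, unadjusted p = 0.0383 in limma). Without the latter it also passed between the days (3.53, unadjusted p = 0.0264 in limma). No direction for Terc is drawn from these values.

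The mRNAs for proteins that work with these RNAs were measured in the mRNA table, by adding up the values of the transcripts of each gene. Of 70 symbols in 7 lists, 68 were tested (Srpra and Ro60, the others, are newer symbols for Srpr and Trove2), and 0 were called in limma in any comparison. Among all 16096 gene sums tested, 0.342% were called on CFA3D against saline, 0.584% on CFA6D against saline and 0.770% between the days. Of the 7 genes of the 7SK particle and P-TEFb, 1 was below saline on CFA3D and 4 on CFA6D, with median log2 fold changes of 0.06 and −0.01. Over all gene sums the medians were 0.05 and 0.03. Cdk9, the gene of the P-TEFb kinase, was at 13.1 ± 1.05 FPKM (SD, n = 3) in saline, 13.6 ± 0.330 on CFA3D and 14.3 ± 2.41 on CFA6D, and the cyclin Ccnt2 was at 13.5 ± 1.56, 14.5 ± 1.50 and 13.0 ± 0.716 FPKM. These differences were within the spread. Of this list only Mepce, which caps 7SK RNA and is named after its values were seen, had an unadjusted p under 0.05: its log2 fold change was 0.20 on CFA6D (unadjusted p = 0.0358 in limma).

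Of the 10 genes tested for proteins of the signal recognition particle and its receptor, 3 had mRNA sums below saline on CFA3D and 6 on CFA6D, with medians of 0.07 and −0.06. The mRNA of Srp14, whose protein binds the Alu end of 7SL RNA, was the most abundant, at 84.2 ± 5.33 FPKM (SD, n = 3) in saline, 87.6 ± 4.54 on CFA3D and 78.8 ± 2.32 on CFA6D. The receptor subunit Srpr was at 25.1 ± 2.29, 27.5 ± 2.51 and 26.1 ± 0.838 FPKM. Srp19, named after its values were seen, had a log2 fold change of 0.26 on CFA3D (unadjusted p = 0.0484 in limma). Of the 11 genes for proteins of RNase P and RNase MRP, 5 were below saline on CFA3D and 8 on CFA6D, with medians of 0.00 and −0.09 and 0 genes with an unadjusted p under 0.05 in limma. Pop5 was at 21.8 ± 4.33, 21.2 ± 1.88 and 18.4 ± 0.460 FPKM, and Rpp21 at 12.8 ± 2.06, 12.4 ± 0.242 and 11.5 ± 0.743 FPKM.

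The lists of the scarcer RNAs were small. The mRNA of Ssb, the gene of the La protein that binds the 3′ end of new polymerase III transcripts, was at 19.0 ± 1.71 FPKM (SD, n = 3) in saline, 19.4 ± 2.13 on CFA3D and 19.1 ± 0.965 on CFA6D, and that of Trove2, the gene of the Ro protein, was at 5.90 ± 0.176, 5.83 ± 0.246 and 5.42 ± 0.295 FPKM. Mvp, the gene of the major vault protein, was at 14.4 ± 0.545, 15.7 ± 1.13 and 13.9 ± 0.427 FPKM, and Parp4, the gene of a vault enzyme, at 6.07 ± 0.488, 6.35 ± 0.504 and 6.998 ± 0.307 FPKM. Of 7 telomerase genes 1 was below saline on CFA3D and 4 on CFA6D, with medians of 0.05 and −0.02. Nop10 and Nhp2, genes of proteins that telomerase shares with the H/ACA class of small nucleolar RNAs, were at 24.2 ± 1.01 and 17.5 ± 2.45 FPKM in saline, and Tert, the gene of the catalytic protein, was at 0.502 ± 0.180 FPKM. These genes had 0 unadjusted p under 0.05 in limma between any groups.

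RNA polymerase III and its factors made up the largest list, with 28 genes measured. On each day 7 of them were below saline, with medians of 0.06 on CFA3D and 0.05 on CFA6D, close to those of all gene sums. Brf1, a subunit of TFIIIB, was at 22.1 ± 0.895 FPKM (SD, n = 3) in saline, 23.0 ± 2.93 on CFA3D and 23.6 ± 1.83 on CFA6D, and Gtf3c1, the largest subunit of TFIIIC, was at 19.9 ± 1.50, 20.4 ± 1.996 and 20.5 ± 0.679 FPKM. The genes with an unadjusted p under 0.05 in limma, named after their values were seen, were Crcp on both days (log2 fold changes 0.42 and 0.51), Snapc2 on CFA3D (0.26) and Polr3f between the days (−0.26). Crcp, also known as a component of the CGRP receptor, is a subunit of the polymerase, and its gene sum was 6.57 ± 0.540, 8.82 ± 0.452 and 9.51 ± 1.83 FPKM. The adjusted p of these genes was over 0.05 in limma, as it was for all 16096 gene sums.

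The transcripts of the noncoding table most like each member over the 9 libraries, by Pearson's r of log2(FPKM + 0.1) among 2268 transcripts that averaged 1 FPKM or more, were the following. Rn7s1 and Rn7s2 were each most like the other, as were Rny1 and Rny3. Rn7sk was most like Gm27597, annotated as a miRNA (r = 0.93, mean 225 FPKM), and Gm37116, a processed pseudogene (r = 0.90). Rpph1 was most like the processed pseudogenes Gm21182 and Gm10335 (r = 0.94 for both), and Rmrp like Mir5620 (r = 0.93) and Gm24282 (r = 0.84). Second to the partner came Gm21769 for Rn7s1 (r = 0.89), Rpph1 for Rn7s2 (r = 0.91), Gm29216 for Rny1 (r = 0.96) and Gm25099 for Rny3 (r = 0.96). Vaultrc5 was most like Gm26316 and Gm24191, annotated as snRNAs (r = 0.90 for both), and Terc like C030015A19Rik (r = 0.88) and Gm2623 (r = 0.87). These are the highest of many coefficients over few libraries and are given as a description.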

How the data were processed

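TG RNA-seq libraries were pools of 3 mice (n = 3 pools per group), so pools and not mice are the replicates. In limma the spread of each RNA is partly taken from a trend over the other transcripts fitted. Its p-values and intervals therefore do not measure the spread between pools alone. The deposited tables, for mRNA, lncRNA and other noncoding RNA, hold FPKM for each transcript, and each table was tested by itself. Per the methods, ribosomal RNA was depleted, libraries were strand-specific, trimmed reads were mapped to GRCm38, and hits per gene were counted in CLC Genomics Workbench, whereas the submitters' processing notes name Bowtie 0.12.2 and mm8. The step that made FPKM per transcript and the handling of reads with several matches are not given in the sources used here.

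Names were matched to GENCODE mouse release 21 (24532 of 24718 noncoding transcripts). The approximate number of read pairs behind the FPKM was inferred from the step between low values, with 1 read pair in 1 kb worth 0.0237 to 0.0333 FPKM. Transcripts, or sums over the mRNA transcripts of a gene, that averaged 0.1 FPKM or more were fitted in limma 3.58.1 (R 4.3.3) on log2(FPKM + 0.1), with the 9 libraries in 1 model, a mean trend and Benjamini-Hochberg adjustment over the table. Calls required p below 0.05 before adjustment with a change of 1 or more on the log2 scale. Shares and ratios were compared by exact permutation, where 3 against 3 gives 0.1 at best. Copies were searched for with BLAST 2.17.0+ among noncoding transcripts annotated as misc_RNA, ribozyme or miRNA. In simulated data for CFA3D against saline (7989 transcripts), 200 transcripts that averaged 1 FPKM or more were shifted by 2 log2 units. The rule recovered 98.5% of them. The fitted changes of the 5 abundant RNAs were below the minimum of 1 on the log2 scale, so this rate does not bear on them.

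Members and lists were chosen with earlier results of these data known. By rule the text names the members, the 5 most abundant noncoding transcripts, the 2 transcripts most like each member, and the 2 most abundant and any called genes of each list. Copies and annotations that overlap members were added after their values were seen. Alternatives were other pseudocounts, filters, scalings and table totals, sums per gene, fits to the compared groups alone, a replicate block, and leaving out each library. The 7SL sequence is not reported here.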

Additional observations from a re-analysis of the deposited data

Results flagged for a closer look

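In the lncRNA table, which the comparisons use only for Rmrp-202, the assembled transcript MSTRG.2605.1 was at 62081 FPKM in CFA6D replicate 4 and at 12.6 to 289 FPKM in the other libraries, saline included. No other transcript of that table exceeded 2367 FPKM in any library. It drew attention as a signal outside the measurements reported here, above the level in the saline libraries. CFA6D replicate 4 is also the library with the lowest ratios of Rn7s2 to Rn7s1 (0.757) and of Rpph1 to Rmrp (1.78). A relation between these values was not tested.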

How the results depend on the processing

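Of 522 recomputed fold changes of members, 478 kept their direction and side of the rule, 32 turned direction, 6 came to pass the rule, 0 no longer passed it and 6 were at 0 (within 1e-09) and so had no direction. Of the 195 for the 5 abundant RNAs against saline, 3 turned and 4 were at 0 (Rn7s1 and Rn7s2 on both days), all with quantile normalization. Those that turned, on CFA6D, were Rn7sk 0.36, Rpph1 0.66 and Rmrp 0.36 (between the days, Rn7sk 0.72, Rpph1 1.32 and Rny3 0.23, and Rny1 0.058 on CFA3D). That normalization sets values by rank, and Gm47299 ranks above these RNAs in 6 libraries and far below them in 3. The count of members called, 0, ranged from 0 to 2 on CFA3D against saline and from 0 to 2 between the days when 1 library was left out (Vaultrc5 and Terc without CFA3D replicate 1, Terc without saline replicate 3), and was 1 on CFA3D without both saline replicate 3 and CFA6D replicate 6, a choice made after the data had been seen. Partner lists had 0 calls under every alternative run. Without that pair of libraries Rny1 was 0.25 on CFA3D, Rny3 0.13 between the days and Terc −1.60 on CFA6D. Leaving out each library gave, on CFA3D, −0.26 to −0.14 for Rn7sk, −0.30 to −0.12 for Rn7s1, −0.31 to −0.13 for Rn7s2, −0.24 to −0.15 for Rpph1, −0.26 to −0.18 for Rmrp, −0.52 to 0.26 for Rny1, −0.48 to 0.42 for Rny3 and −0.017 to 1.01 for Vaultrc5. On CFA6D it gave −0.36 to −0.23 for Rn7sk, −0.34 to −0.16 for Rn7s1, −0.40 to −0.20 for Rn7s2, −0.31 to −0.18 for Rpph1, −0.14 to −0.064 for Rmrp, −0.48 to 0.30 for Rny1, −0.50 to 0.40 for Rny3 and −1.35 to 1.30 for Terc. Between the days it gave −0.089 to 0.00121 for Rn7s1, −0.12 to 0.00458 for Rpph1, −0.23 to 0.33 for Rny1 and −0.27 to 0.25 for Rny3. With a pseudocount of 1, Terc was −0.24 on CFA6D, and Rn7sk and Rpph1 had unadjusted p of 0.0224 and 0.0492 in limma on CFA6D, with folds below the minimum. Per fragment outside the abundant RNAs, chosen after the data had been seen, Rny1 was −0.069 and Rny3 −0.014 on CFA6D, and Rn7sk was −0.26 on CFA3D and −0.40 on CFA6D.

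Saline and CFA3D share the replicate numbers 1 to 3. Same-numbered libraries had correlations of deviations of 0.0959, −0.0353 and 0.149, and differently numbered ones had −0.182 to 0.0978. Deviations from a mean of 3 libraries depend on each other, so these values cannot decide whether the numbers pair the pools. With the replicate block, 0 members and 0 partner genes were called, and Rn7sk was −0.20 (unadjusted p = 0.622 in limma). CFA6D has other numbers and could not be blocked. Terc was under 1 read pair in 3 libraries.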
